A study of Homo sapiens with 8 samples.

Results

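The comparison described here is that of PF-03084014 alone with its vehicle DMSO, and it used 4 of the 8 arrays of the study, 2 per group. They were chosen by their labels, with no measured value used. The cells were CUTLL1, an established human T-cell acute lymphoblastic leukemia line that carries an activated NOTCH1 receptor. One group received DMSO and the other 1 microM PF-03084014, an inhibitor of gamma-secretase, each for 48 h, and neither received dexamethasone. The other arrays, 2 with dexamethasone at 1 microM and 2 with both compounds at that dose, entered the estimate of error and served as a second pair of groups that differ by PF-03084014. The labels number the arrays of a group as replicas and do not tell whether cultures were separate, and the p-values given here cover only the spread among these arrays, which may be technical. All samples were of 1 cell line, and the measurement was of RNA from whole cultures. In such samples, fewer cells of a type and less RNA per cell cannot be told apart.

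Gamma-secretase is a membrane protease complex that makes the final cut in NOTCH receptors once a ligand or a mutation has exposed them. The cut releases the intracellular part of the receptor, which enters the nucleus, joins the DNA-binding protein RBPJ and switches on genes such as HES1, NRARP and DTX1. In T-cell leukemia this program drives growth, in part through MYC, and it holds cells in an immature state. The enzyme also cuts many other membrane proteins, so an inhibitor may act beyond NOTCH.

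The values were probe-set intensities on a linear scale, given here as deposited. For differences, intensities under 16 were set to 16 and converted to log2, and each of 19775 genes was represented by its brightest probe set. Genes were called, and are described as having risen or fallen, at an adjusted p under 0.05 in limma's test with Benjamini-Hochberg adjustment over all genes. Differences are PF-03084014 minus DMSO on the log2 scale, and values after ± are standard errors of the fit. Gene lists were not tested, and their members were chosen with earlier results of these data known. Their shares, set beside those of all genes, are therefore descriptions.

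Array medians lay between 63.3 and 63.9 on these 4 arrays, and the replicates of DMSO and of PF-03084014 correlated across genes with r = 0.991 and 0.993. The spiked bacterial control bioB read 915 and 781 with DMSO and 635 and 615 with PF-03084014, and the ratio of 3 prime to 5 prime signal of ACTB was 2.26 and 1.92 against 1.82 and 1.85. Both measures were thus lower on both PF-03084014 arrays, and their part in the results was not tested. Of the T-lineage markers, 9 of 9 measured genes exceeded an intensity of 100 on each of the 4 arrays, among them CD3D at 13700.4 and 13545 with DMSO and 14030.0 and 13748 with PF-03084014. Their summed intensity was 53552 and 53788 with DMSO and 59392 and 57587 with PF-03084014. B-lineage, myeloid, and epithelial and stromal markers were mostly dim, with 5 of 7, 6 of 8 and 8 of 10 under 100 on all 4 arrays. Their summed intensities overlapped between the groups for the myeloid (558 to 630.4) and the epithelial and stromal genes (637 to 749), and for the B-lineage genes stood at 599 and 575 against 646 and 676. Markers of NK and cytotoxic cells summed to 2822 and 2582 with DMSO and to 3169 and 3319.9 with PF-03084014, and 2 of 8 were under 100 throughout. Erythroid and megakaryocyte markers summed to 439 and 442 against 545 and 603, with 5 of 7 under 100. Of these defining markers, VPREB1 of the B lineage and CD14 of myeloid cells lay at or under the intensity floor on all 4 arrays. No member of these marker lists was called except HEMGN of the last, described below. The part of other cell types in the results was not tested.

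The markers of the NOTCH response were lower on both PF-03084014 arrays than on both DMSO arrays. NRARP, which encodes a feedback inhibitor of NOTCH signalling, stood at 6279.9 and 5414 with DMSO and 948 and 898 with PF-03084014, and was 6.32-fold lower (-2.66 ± 0.14 log2, adjusted p = 0.00994). The ubiquitin ligase gene DTX1 read 2959.9 and 3096 with DMSO and 672 and 659 with PF-03084014 and was 4.55-fold lower (adjusted p = 0.00483). HES1, a transcriptional repressor that NOTCH switches on directly, read 1242 and 1296 with DMSO and 424 and 342 with PF-03084014 (-1.74 ± 0.15, adjusted p = 0.0202), with its other probe sets at -1.56 and, at the floor, 0. The treated and control arrays did not overlap for any of these genes, and none of the 4 arrays went against its label.

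The RefSeq promoter of HES1 is shown for its copies of the core motif of RBPJ. Only exact matches to the core letters are marked. Sites with other letters were not searched, so the marked pair need not be the pair that NOTCH uses. The line gives the 250 bases before the gene's start, at chr3:194135898-194136147 of GRCh38.p14 on the plus strand, with the RBPJ core motif TGGGAA in capitals, both copies on the gene's strand at positions -84 and -70 from the start.
HES1: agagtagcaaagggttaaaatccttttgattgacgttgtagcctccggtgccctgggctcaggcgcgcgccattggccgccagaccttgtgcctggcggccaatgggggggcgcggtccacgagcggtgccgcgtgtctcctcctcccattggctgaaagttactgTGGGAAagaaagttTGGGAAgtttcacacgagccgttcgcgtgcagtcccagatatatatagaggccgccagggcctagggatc

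Over the promoters of all 15384 genes tested that had one (250 bases before to 50 after the start), 22.9% held TGGGAA on either strand. The share was 19.6% of 56 promoters of genes that fell and 12 of 80 promoters of genes that rose, both below the share of all genes. In the list of NOTCH targets it was 35.7%, or 5 of 14 promoters. Of the genes that fell, HES1, HES5, LUNAR1, GIMAP1, MAP3K8 and PRKCA were among the 11 that held it. A match is a description of the letters and not evidence of binding.

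In all, 163 genes were called, 94 higher and 69 lower, or 0.824% of the genes tested (0.475% higher and 0.349% lower). The falls were larger than the rises: 36 of 69 lower genes and 16 of 94 higher genes differed at least 2-fold, and the median differences were -1.06 and 0.69. The median over all genes was 0.018. Without any test, both PF-03084014 arrays lay above both DMSO arrays for 26.9% of all genes and below them for 19.7%. Those shares include dim genes, 687 of them at the floor on all 4 arrays, and were not matched to any list by level. Among cytosolic ribosomal proteins, whose median difference was 0.023, 41.7% lay above without overlap. A further 184 genes differed at least 2-fold without overlap but were not called, 88 higher and 96 lower. The number of calls moved with the error model, from 0 when only the 4 arrays were fitted (3482 genes then had an unadjusted p under 0.05) to 732 with array weights. Leaving out PF-03084014 replicate 1, PF-03084014 replicate 2 or DMSO replicate 1 also gave 0. Leaving out DMSO replicate 2 gave 41, leaving out dexamethasone replicate 1 or 2 gave 3, and leaving out both combination arrays gave 350, with a like number when only 1 of them was left out. When each array was shifted to 1 median, the calls fell to 32, with a share of 21.9% higher where the fit described had 57.7%, although all 163 genes kept their direction.

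**Figure D1:**
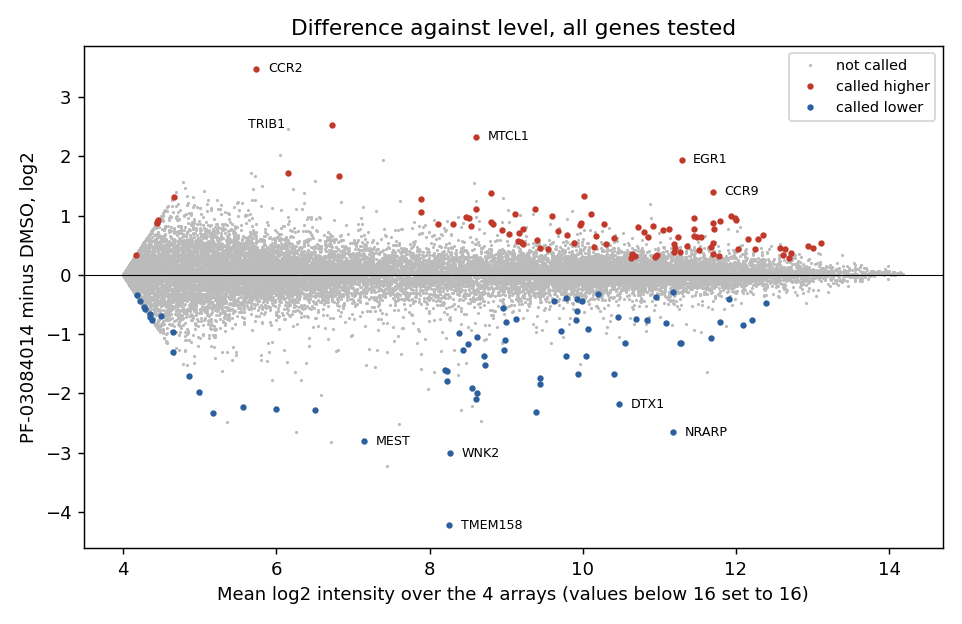
Each point is 1 of 19775 genes, with its mean log2 intensity over the 4 arrays on the horizontal axis and PF-03084014 minus DMSO (log2) on the vertical axis; called genes are coloured (94 higher in red, 69 lower in blue). The largest fall was TMEM158 at -4.23 and the largest rise CCR2 at 3.48, and the called genes at the far left lie near the intensity floor.

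Other genes of the NOTCH pathway fell with the markers. Of 16 NOTCH targets and feedback genes, NRARP, DTX1 and HES1 included, 7 fell (43.8%, against 0.349% of all genes), none rose and 9 were not called. The share and the median of the list thus also count those markers. The list median was -0.96 (-0.60 without probe sets ending in _x_at or _s_at). The repressor genes HEY1 (-2.28 ± 0.15) and HES5 (-1.60 ± 0.13), the RNA-protein assembly gene SHQ1 (-1.06 ± 0.085) and PTCRA (-0.77 ± 0.040), the invariant partner of the T-cell receptor beta chain, completed the calls. HES4 read 5660.4 and 5448 with DMSO and 1883 and 1693 with PF-03084014 and was not called (adjusted p = 0.0675). IL2RA at -0.10 and IGF1R at -0.13 were not called either. LUNAR1, a NOTCH-dependent long noncoding RNA gene near IGF1R, fell by 1.37 on the log2 scale, from 665 and 683 to 238 and 285. It was named after its values were seen.

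Genes of the protease itself were not called. Of 7 measured genes for gamma-secretase subunits and for the ADAM sheddases, which make the cut before it, all had values above 0, and 5 of 7 had both PF-03084014 arrays above both DMSO arrays (71.4%, against 26.9% of all genes). The median was 0.26, but it was 0.077 with probe sets averaged and 0.098 with a floor of 64. The sheddase gene ADAM10 read 6145 and 6288 with DMSO and 7816 and 7802 with PF-03084014 (0.33 ± 0.048, adjusted p = 0.0619), the subunit genes APH1B and PSEN2 stood at 0.52 and 0.44, and NOTCH1 itself at 0.35 ± 0.061 (adjusted p = 0.0825). GSAP, which encodes a protein described as an activator of gamma-secretase, was among the 20 largest falls. It read 73.3 and 54.2 with DMSO and lay under the floor on both PF-03084014 arrays (10.2 and 10.1), so that it was at least 3.94-fold lower (adjusted p = 0.0196). Its second probe set was lower by a like amount but was not called (adjusted p = 0.0549).

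The largest falls outside the NOTCH list were in genes of varied function. TMEM158, a membrane protein gene first described as induced by RAS, read 1707 and 1030.3 with DMSO and 78.1 and 64.1 with PF-03084014, a 18.7-fold difference (adjusted p = 0.0133). WNK2, a kinase gene, read 816 and 932 with DMSO and 108 and 109 with PF-03084014, and of its 5 other probe sets 1 was called lower too, the brightest, at -3.38, and the highest stood at 0.21. MEST, an imprinted gene of the hydrolase family, read 412 and 342 with DMSO and 68.4 and 42.0 with PF-03084014. For each of these genes the lowest DMSO array exceeded the highest PF-03084014 array several-fold.

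DMBT1, a scavenger receptor gene, read 1592 and 1403 with DMSO and 353 and 255 with PF-03084014. LRP4, a lipoprotein receptor relative that modulates WNT signalling, fell from 1326 and 1301 to 372 and 363 (adjusted p = 0.00471), and APCDD1, a WNT inhibitor gene, from 1799.5 and 1705 to 522 and 582. Replicate arrays lay close together for both genes, far from the other group. The integrin gene ITGA1, whose product binds collagen, fell by 1.79 on the log2 scale to 145 and 179. It was the only integrin called of 23 (4.35%, against 0.824% of all genes). The median of the list was 0.10, and -0.0063 without DMSO replicate 2. The other ITGA1 probe sets stood at -0.84 and 0.41, neither called.

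The signalling genes among the falls included MAP3K8, a kinase upstream of ERK, at 138 and 140.0 with DMSO and 25.3 and 33.3 with PF-03084014. RGS1, which shortens signals from chemokine receptors, read 819.9 and 750.0 with DMSO and 212 and 182 with PF-03084014. It was the only 1 of 18 RGS genes called (5.56%, against 0.824% of all genes), and the list median was 0.033. The unconventional myosin gene MYO7B stood at -2.10 ± 0.14 and ATP6AP1L, related to a proton pump subunit, at -1.68 ± 0.13. The 2 other MYO7B probe sets, both dim, were not lower (0 and 0.26). Dim genes among the 20 largest falls were the repressor gene HIC1 and the noncoding genes CHRM3-AS2 and LINC01120. CHRM3-AS2 and HIC1 were at the floor on both PF-03084014 arrays, so their differences of -2.33 and -1.71 are decreases of at least that size. LINC01120 read 118 and 88.9 with DMSO and 23.7 and 20.3 with PF-03084014, and its other probe set stood at -0.063.

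**Figure D2:**
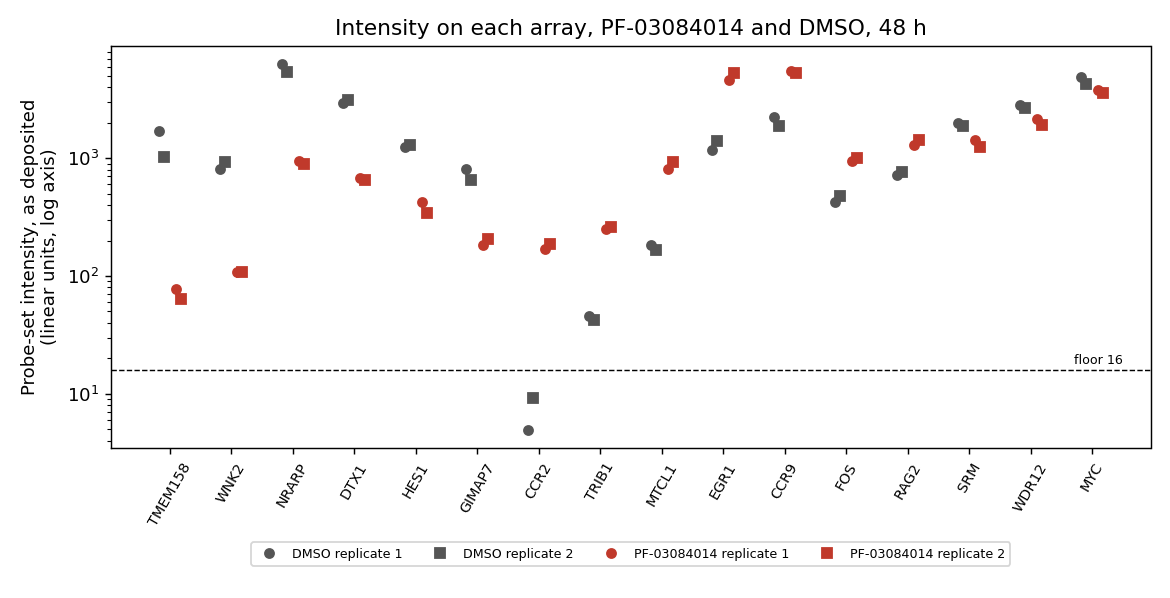
Intensity as deposited (log axis) of 16 genes on each of the 2 DMSO (grey) and 2 PF-03084014 (red) arrays, with circles for replicate 1, squares for replicate 2 and the floor of 16 as a dashed line. For each gene the groups do not overlap, from TMEM158, at 1030.3 or more with DMSO and 78.1 or less with PF-03084014, to MYC, where the groups lie close together and the difference was not called.

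The GIMAP genes, which encode GTPases of lymphocyte membranes that support T-cell survival, were taken as a family after 4 of them were seen among the falls, so their number is a description. GIMAP7 read 815 and 653 with DMSO and 182 and 206 with PF-03084014 (-1.91 ± 0.14). GIMAP1 fell by 1.16, GIMAP6 by 0.95 and GIMAP2 by 0.71 on the log2 scale, and the other probe sets of GIMAP1 (4) and GIMAP6 (1) were also lower. The remaining members, GIMAP4, GIMAP5 and GIMAP8, were dim, at most 56.8 on any of the 4 arrays, and were not called. All the members brighter than that fell.

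Other falls named after their values were seen were in the T-helper cytokine gene IL4, from 589.9 and 469 to 162 and 179, and in the kinase gene PRKCA, from 2199 and 2299 to 1001 and 1020.3. ABCA1, which exports cholesterol, fell from 1565 and 1855 to 627 and 686, and BCHE, a cholinesterase gene, from 6379 and 5919.9 to 3583 and 3696. None of these genes overlapped between the groups. Long noncoding RNA genes made up 8.59% of the called genes, 7 higher and 7 lower, against 13.5% of the genes tested that had a RefSeq gene type.

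Genes of the BMP pathway, a growth factor pathway that acts through SMAD proteins and ID genes, included large differences that the test did not call. ID1, an inhibitor of differentiation factors and a BMP target, read 829 and 679 with DMSO and 184 and 129 with PF-03084014 (-2.29 ± 0.32, adjusted p = 0.0573). The ligand gene BMP4 read 900.5 and 731 with DMSO and 176 and 173 with PF-03084014 (-2.22 ± 0.33, adjusted p = 0.0653). In both genes the groups lay over 3-fold apart without overlap. Of 18 genes of the list none was called, and the median was -0.024, with 9 values above and 9 below 0. The inhibitory SMAD7 stood at -0.58 and the receptor gene TGFBR2 at 0.70.

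Among the rises, immediate early genes, which respond within minutes to growth and receptor signals, held several calls. Of 18 measured, 4 rose and none fell (22.2%, against 0.475% of all genes called higher), and the median was 0.28 (0.16 with a floor of 64). EGR1, a zinc finger transcription factor gene, read 1175 and 1388 with DMSO and 4612 and 5241 with PF-03084014, a rise of 3.85-fold (adjusted p = 0.0187), and both of its other probe sets were higher (1.93 and 2.06). FOS read 427 and 480.2 with DMSO and 952 and 998 with PF-03084014 (1.11 ± 0.094). IER2 rose by 0.61 ± 0.058 and ZFP36, whose product destabilises cytokine messages, by 0.53 ± 0.053, while EGR3 stood at 0.92 and JUN at 0.30 without a call. The median of the list was 0.19 when DMSO replicate 1 was left out and 0.36 when DMSO replicate 2 was.

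The promoter of EGR1 is shown for its CArG boxes, the elements through which serum response factor acts on such genes. The line gives the 250 bases before the start, chr5:138465229-138465478 of GRCh38.p14 on the plus strand, with each CArG box (CC, any A or T in a run of 6, GG) in capitals, starting at positions -105 and -83.
EGR1: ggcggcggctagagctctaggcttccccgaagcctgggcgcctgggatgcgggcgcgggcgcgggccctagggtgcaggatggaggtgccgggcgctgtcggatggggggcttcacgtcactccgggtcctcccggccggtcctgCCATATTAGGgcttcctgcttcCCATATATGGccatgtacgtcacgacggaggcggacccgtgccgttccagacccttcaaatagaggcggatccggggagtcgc

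A CArG box was found in 1.24% of all promoters and in 2.5% of the 80 promoters of genes that rose, those of EGR1 and AQP3. Of the 14 immediate early genes with a promoter, only EGR1 had one in this window.

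Feedback genes of the MAP kinase pathway held rises and a fall. Of 18, 3 rose and MAP3K8, described above, fell (22.2% called, against 0.824% of all genes). The list median was 0.25. TRIB1, a pseudokinase gene that steers protein degradation, read 45.9 and 42.4 with DMSO and 251 and 259 with PF-03084014 (2.53 ± 0.21), though its 2 other probe sets, both dim, stood at -0.23 and 0.048. DUSP6, the ERK phosphatase gene, rose by 0.44 ± 0.045, with its other probe sets at 0.42 and 0.48. DUSP1 rose by 0.59 ± 0.048 on its brightest probe set but stood at -0.41 and -0.32 on the other 2, and at -0.046 when probe sets were averaged.

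Receptors for thymic and inflammatory chemokines were among the largest rises. CCR2, the receptor for the chemokine CCL2, was under the floor on both DMSO arrays (4.97 and 9.27) and read 169 and 188 with PF-03084014, so that it was at least 11.1-fold higher (adjusted p = 0.0167). Its second probe set, of mean intensity 52.4, stood at 1.34 ± 0.73 and was not called. CCR9, the receptor that guides cells to thymus and gut, read 2235 and 1869.9 with DMSO and 5505 and 5319 with PF-03084014 (1.40 ± 0.10). These were the only calls among 19 chemokine and homing receptors (10.5%, against 0.824% of all genes), whose median was 0.064. CCR7 at 0.66 and CXCR4 at 0.17 were not called.

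Genes of immature thymocytes mostly lay higher, with the pre-receptor genes PTCRA and IGLL1 as the exceptions. Of 14 measured, 3 rose, RAG2, CD1C and AQP3, and PTCRA fell (28.6% called, against 0.824% of all genes). The median was 0.55 (0.36 with a floor of 32 or 64), and 12 of 14 had both PF-03084014 arrays above both DMSO arrays (85.7%, against 26.9% of all genes). The recombinase gene RAG2 read 726 and 761 with DMSO and 1288 and 1437 with PF-03084014, and its partner RAG1 stood at 1.19 ± 0.16 (adjusted p = 0.0532). CD1C, which presents lipid antigens, read 2185 and 2086 with DMSO and 3566 and 3739 with PF-03084014, and the water channel gene AQP3 7642 and 6986 with DMSO and 10504 and 10744 with PF-03084014. DNTT, which adds bases at receptor gene joints, stood at 0.64, and CD34, a stem and progenitor marker, at 0.67, both without a call.

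Transcription factors of the T lineage changed in both directions. GATA3, which sets T-cell fate, rose from 3992 and 4308 to 6783 and 6445, and its 2 other probe sets stood at 0.52 and 0.75. The chromatin organiser SATB1 rose by 0.83 ± 0.052 (other probe sets at 1.30 and -0.15) and TOX by 0.44 ± 0.048, while RUNX3, a factor of the CD8 lineage, fell by 0.76 on the log2 scale, from 2245 and 2554 to 1378 and 1446. Calls made up 15.4% of the list, against 0.824% of all genes. The other 22 of 26 were not called, and the median was 0.19 (0.083 with probe sets averaged). TOX2 and the factor gene LMO4, in no list and named after their values were seen, rose by 0.96 ± 0.067 and 0.65 ± 0.068.

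The CD3 complex and proximal T-cell receptor signalling genes had no call among 22, with a median of 0.20 and 17 of 22 higher on both arrays (77.3%, against 26.9%). The adhesion receptor gene CD2 read 3063 and 2804 with DMSO and 4879.8 and 5136 with PF-03084014 (adjusted p = 0.0502). Outside that list, 2 of the 20 largest rises were RASGRP1, which activates RAS, at 1.00 ± 0.088 and the adaptor gene FYB1 at 0.96 ± 0.11. The 4 other FYB1 probe sets lay between 0.41 and 0.55, none called. The adaptor SH2D1A rose by 0.46 ± 0.042 and the receptor genes CD96 and LAIR1 by 0.64 ± 0.083 and 0.64 ± 0.076, all named after their values were seen. Summed T-lineage and NK marker intensities, given above, were higher on both PF-03084014 arrays. The T-lineage markers share genes with the CD3 and T-cell receptor list, CD2 among them, so their sum is not a separate observation. The part of cell content in these values was not tested.

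Cytokine receptors and SOCS genes had 1 call in 22 (4.55%, against 0.824% of all genes). It was IL7R, which encodes the receptor for interleukin 7 and is itself a NOTCH target. IL7R read 6562 and 6168 with DMSO and 4559.5 and 4588 with PF-03084014 (-0.48 ± 0.051), and its second probe set stood at -1.37. IL23A, a cytokine subunit gene, rose by 1.07 ± 0.087, but its 3 other probe sets stood between 0 and 0.15. IL17RA, named after its values were seen, rose by 0.66 ± 0.042.

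The other large rises came from genes of varied function. MTCL1, which links microtubules, read 182 and 165 with DMSO and 815 and 932 with PF-03084014 (2.33 ± 0.11, adjusted p = 0.00801). HEMGN, a regulator of blood progenitors, read 42.1 and 36.6 with DMSO and 123 and 135 with PF-03084014. It was the 1 gene called of the erythroid and megakaryocyte markers (14.3%, against 0.824% of all genes), whose GATA1 stood at -0.26 and HBB at 0.20. The sodium channel gene SCN3A read 60.9 and 66.0 with DMSO and 187 and 219 with PF-03084014, with its dim second probe set at 0.020, and PKIB, which encodes an inhibitor of protein kinase A, read 259 and 294 with DMSO and 683 and 759 with PF-03084014, with its second probe set at 1.56. These genes read under 300 with DMSO, and their treated arrays lay close together.

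Of the remaining genes among the 20 largest rises, CAMK2D, a calcium-dependent kinase gene, rose by 1.02 ± 0.11 and ARID5B, a chromatin factor gene, by 0.99 ± 0.12. The 4 other probe sets of CAMK2D lay between -0.12 and 1.00. Those of ARID5B lay between -0.59 and 0.73 with only 1 above 0, and the mean of its probe sets gave 0.18. The neuronal surface gene LRRN1 rose by 0.97 ± 0.091, and the noncoding genes LINC02273 and LINC01222 by 1.33 ± 0.10 and 1.28 ± 0.16. SMPD1, the lysosomal sphingomyelinase gene, stood at 1.11 ± 0.13 on its main probe set, while its 3 others lay between -0.20 and -0.029. OBP2A was under the floor on both DMSO arrays and read 33.9 and 47.0 with PF-03084014, and its 2 other probe sets stood at -0.022 and 0.0032.

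PTCH1, the Hedgehog receptor and itself a Hedgehog target, read 378 and 401 with DMSO and 755 and 836 with PF-03084014 (1.03 ± 0.073), and its 4 other probe sets lay between 0.039 and 0.88. HHIP-AS1, next to another Hedgehog target, rose by 0.68 ± 0.078. The Hedgehog genes were then taken as a family, after these values were seen. Of its 13 measured genes only PTCH1 was called (7.69%, against 0.824% of all genes). GLI1 stood at -0.12 and HHIP at 0.015, and the family median was 0.16 (0.047 without DMSO replicate 2).

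FOXO factors and quiescence genes, which respond when growth signalling drops, held 1 rise and 1 fall in 19 (10.5% called, against 0.824% of all genes). Their median was 0.19 (0.098 with probe sets averaged). The cyclin-like CCNG2 read 3937 and 4176 with DMSO and 5876 and 6504 with PF-03084014 (0.61 ± 0.063), and all 4 of its other probe sets were higher. The fall was that of IL7R. TXNIP, which limits glucose uptake, stood at 1.59 ± 0.21 and PIK3IP1 at 0.93, neither called. In the cell cycle entry list, the CDK inhibitor gene CDKN2D rose from 1632 and 1623 to 2728 and 2789.6. The other 20 genes of that list were not called (4.76% called, against 0.824% of all genes). The list median of -0.051 turned to 0.080 without probe sets ending in _x_at or _s_at.

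In the BCL2 family, BCL2L1, a survival gene, rose by 0.38 ± 0.032 as the 1 call of 15 (6.67%, against 0.824% of all genes). The median of 0.21 became 0.11 without DMSO replicate 1 and 0.057 with a floor of 64. Of NF-kappaB targets and inhibitors, LTB, a lymphotoxin gene, rose by 0.92 ± 0.10 and CD83 by 0.57 ± 0.069. These calls were 10.5% of the list, against 0.824% of all genes. The list median of -0.0032 turned to 0.031 after quantile normalization. The second LTB probe set stood at 0.0095. Of 26 glucocorticoid receptor targets, DUSP1 and the kinase gene SGK1 (0.87 ± 0.10) rose and RGS1 and IL7R fell, in cells that had received no dexamethasone. Calls were 15.4% of that list, against 0.824% of all genes, and its median was 0.11 (0.063 without DMSO replicate 1).

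Biosynthesis genes showed the opposite pattern: small differences, nearly all below 0, and no member called. MYC, the factor that drives many of them, read 4878 and 4256 with DMSO and 3791 and 3558 with PF-03084014 (-0.31 ± 0.10, adjusted p = 0.280), and no gene of the MYC and MAX network was called (MLXIP nearest at 0.38 ± 0.10, list median 0.090). Of 27 genes of ribosome biogenesis and RNA polymerase I, 18 of 27 lay lower on both PF-03084014 arrays (66.7%, against 19.7% of all genes), with a median of -0.21 (-0.13 without PF-03084014 replicate 2). WDR12, needed for the large ribosomal subunit, read 2846 and 2693 with DMSO and 2160.3 and 1932 with PF-03084014 (-0.44 ± 0.072, adjusted p = 0.0763).

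For nucleotide synthesis and one-carbon metabolism, 21 of 25 genes lay lower on both arrays (84.0%, against 19.7% of all genes). The list median was -0.25. PAICS of purine synthesis stood at -0.30 ± 0.060. For amino acid supply and polyamines, 16 of 21 lay lower (76.2%, against 19.7% of all genes), with a median of -0.28. SRM, the spermidine synthase gene, read 1997 and 1882 with DMSO and 1420.4 and 1237 with PF-03084014 (-0.55 ± 0.091, adjusted p = 0.0785), and the cystine transporter gene SLC7A11 and the branched-chain aminotransferase gene BCAT1 stood at -1.14 and -0.83. All 17 measured aminoacyl-tRNA synthetases, which load amino acids for translation, were below 0 (median -0.19, and -0.13 without DMSO replicate 1), with IARS1 at -0.36 ± 0.047 (adjusted p = 0.0509).

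The promoter of SRM is printed as an example of the E-box CACGTG, the motif that MYC and MAX recognise, shown in capitals at position -199. It covers the 250 bases before the start, chr1:11060019-11060268 of GRCh38.p14 on the minus strand, written along the gene.
SRM: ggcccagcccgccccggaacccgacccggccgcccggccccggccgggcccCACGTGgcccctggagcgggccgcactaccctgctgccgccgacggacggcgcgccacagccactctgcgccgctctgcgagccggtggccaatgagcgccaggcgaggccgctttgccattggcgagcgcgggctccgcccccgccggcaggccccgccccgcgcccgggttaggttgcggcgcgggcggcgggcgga

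CACGTG lay in 39.1% of the promoters of the ribosome biogenesis genes, in 27.3% of those of nucleotide synthesis and in 22.2% of those of amino acid supply and polyamines, against 8.56% of all promoters. It lay in 7.14% of the promoters of aminoacyl-tRNA synthetases and in 7.14% of those of called genes that fell. The motif was also frequent in lists with medians above 0, in 30.4% of the promoters of autophagy and lysosome genes and 38.5% of those of KLF factors.

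Lists of protein production and turnover differed in their medians, which were not tested against each other. Of 41 mitochondrial ribosomal protein genes, 39 were below 0 and 32 lay lower on both arrays (78.0%, against 19.7% of all genes). Their median was -0.18, with MRPL19 at -0.18 ± 0.041. Cytosolic ribosomal proteins, of which 36 were measured, had a median of 0.023, which turned to -0.0048 after quantile normalization, and ranged only from -0.10 (RPL14) to 0.062. Protein folding chaperones lay lower on both arrays in 16 of 20 (80.0%, against 19.7% of all genes), with a median of -0.15. The HSP90 co-chaperone gene FKBP4 stood at -0.57 ± 0.11 (its other probe sets between -0.80 and 0.20). Translation factors (median -0.060, EIF4G2 at 0.12 ± 0.040) and splicing factors (median 0.029, SRSF5 at 0.27 ± 0.062) differed little. The proteasome had a median of -0.049, with PSMB5 at -0.36 ± 0.10. None of these genes was called.

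**Figure D3:**
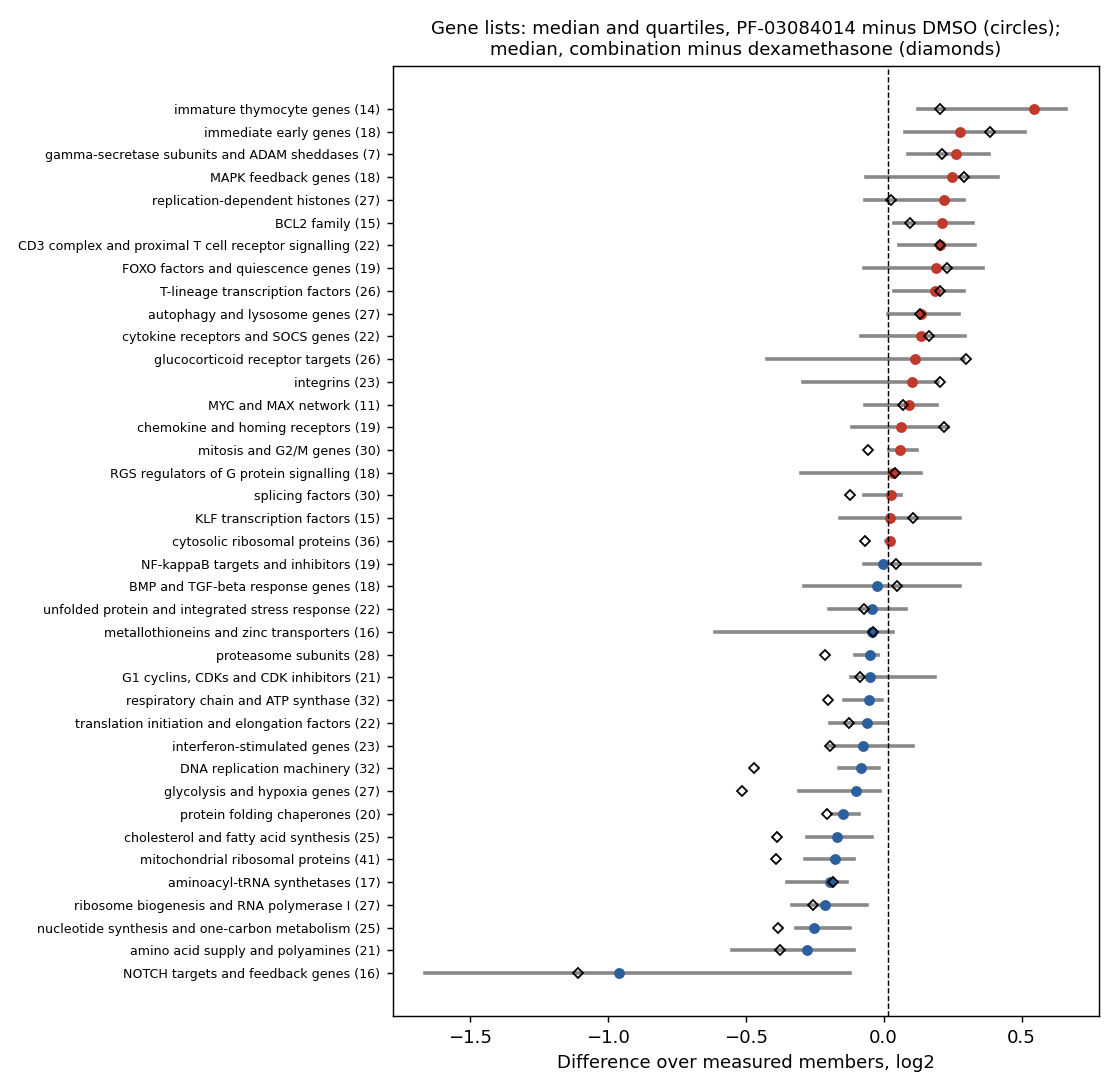
Median (circle) and quartiles (bar) of PF-03084014 minus DMSO, log2, over the measured members of 39 gene lists, with the number of members in parentheses and the median of all genes (0.018) as a dashed line; open diamonds are the medians of combination minus dexamethasone, from other arrays. NOTCH targets lie lowest at -0.96 and immature thymocyte genes highest at 0.55, and the biosynthesis lists lie between -0.28 and -0.18.

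Among the lists of energy metabolism and lipid synthesis, only that of glycolysis and hypoxia held calls (7.41%, against 0.824% of all genes). ALDOC, an aldolase gene, fell by 0.75 on the log2 scale, from 1999.5 and 2302 to 1224 and 1331, and the phosphofructokinase gene PFKM by 0.39. The other 25 genes of glycolysis and hypoxia were not called, and the list median of -0.10 depended on the vehicle arrays: leaving out DMSO replicate 1 gave -0.33 and leaving out DMSO replicate 2 gave 0.033. The hypoxia gene ADM shows this spread, at 1067 and 2666 with DMSO and 711 and 499 with PF-03084014. Cholesterol and fatty acid synthesis genes lay lower on both arrays in 17 of 25 (68.0%, against 19.7% of all genes). Their median was -0.17, with the sterol carrier gene STARD4 at -0.52 ± 0.082. Respiratory chain and ATP synthase genes lay lower in 17 of 32 (53.1%), with a median of -0.051 and CYCS at -0.19 ± 0.031. Neither list held a call.

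No gene in the lists of DNA replication and mitosis was called, and both medians were within 0.1 of 0. DNA replication genes had a median of -0.080, with 18 of 32 lower on both arrays (56.2%, against 19.7% of all genes) and POLD2 at -0.48 ± 0.10. Mitosis and G2/M genes had a median of 0.059, with 16 of 30 higher on both arrays (53.3%, against 26.9%) and KIF20A at 0.16 ± 0.039. Replication genes thus lay slightly below the median of all genes and mitosis genes slightly above it. Replication-dependent histone genes held 1 rise in 27 (3.7% called, against 0.824% of all genes), H2AC6 at 0.86 ± 0.10. Their median was 0.22. That median was 0.11 without DMSO replicate 1 and 0.077 without probe sets ending in _x_at or _s_at. Members of that family are near-identical, and probe sets may not separate them.

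Autophagy and lysosome genes lay higher in 17 of 27 (63.0%, against 26.9%), with a median of 0.14 (0.083 without DMSO replicate 2) and no call, LAMP1 of the lysosomal membrane being nearest at 0.27 ± 0.037 (adjusted p = 0.0523). In the unfolded protein and integrated stress response, EDEM1, which helps to discard misfolded proteins, rose by 0.43 ± 0.047. It was the 1 call of 22 (4.55%, against 0.824% of all genes), and the list median was -0.041. The 16 metallothioneins and zinc transporters had a median of -0.041, with 7 values above and 9 below 0. The zinc importer gene SLC39A14 fell by 0.56 on the log2 scale, the only call (6.25%, against 0.824% of all genes). Its other probe sets stood at 0.15 and -0.33. Among the 7 metallothionein genes, taken apart after the values were seen, 6 were below 0 with a median of -0.77, none called, and MT2A stood at -0.97 ± 0.27. Interferon-stimulated genes (median -0.075 over 23, IFIT2 at 0.67 ± 0.15) and KLF factors (median 0.023 over 15, KLF13 at 0.42 ± 0.071) had no call.

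The arrays with both compounds and with dexamethasone alone gave a second measurement of PF-03084014 that shares no array with the first. Combination replicate 2 stood apart, with an array median of 76.3. Of the 163 called genes, 153 differed in the same direction there, 91 of 94 that rose and 62 of 69 that fell, and the groups did not overlap in any of these 153. Over all genes, 27.8% lay higher and 23.4% lower without overlap in that comparison. Without combination replicate 2, 153 genes again had the same sign. Of the rest, 6 were at the floor on all of these 4 arrays and 4 had the opposite sign. The test called 144 of the 163 in the same direction, against 7.26% of all genes called in that comparison (3.27% higher and 3.99% lower). The 2 comparisons share the error estimate but no array.

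Sizes are given side by side for some of the largest changes. TMEM158 differed by -5.17 ± 0.28 there against -4.23 ± 0.28 here, WNK2 by -3.05 against -3.01, CCR2 by 3.58 against 3.48, and EGR1 by 2.01 against 1.94. CCR9 stood at 1.68, RAG2 at 0.64 and GATA3 at 0.65, all called higher there as well. ID1 and BMP4, not called without dexamethasone, were called lower at -2.75 ± 0.32 (adjusted p = 0.0170) and -3.10 ± 0.33 (adjusted p = 0.0149).

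Several lists had medians on the same side in both comparisons, and some did not. Biosynthesis medians with dexamethasone were -0.26 for ribosome biogenesis, -0.38 for nucleotide synthesis and -0.18 for tRNA synthetases, and immediate early genes stood at 0.39. Immature thymocyte genes stood at 0.21, against 0.55 for PF-03084014 alone. Medians near 0 changed side, among them those of mitosis and G2/M genes (-0.055 against 0.059) and cytosolic ribosomal proteins (-0.069 against 0.023). Splicing factors did so too (-0.12 against 0.029). DNA replication stood at -0.47 with 21 of 32 genes called lower, and glycolysis and hypoxia genes at -0.51 with 11 of 27, against -0.080 and -0.10 for PF-03084014 alone. The interaction of the compounds, which tests whether the effect of PF-03084014 differed with dexamethasone, called 0 genes in limma after adjustment (lowest adjusted p = 0.302), while 1798 had an unadjusted p under 0.05. No single gene was therefore shown to respond differently with dexamethasone.

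**Figure D4:**
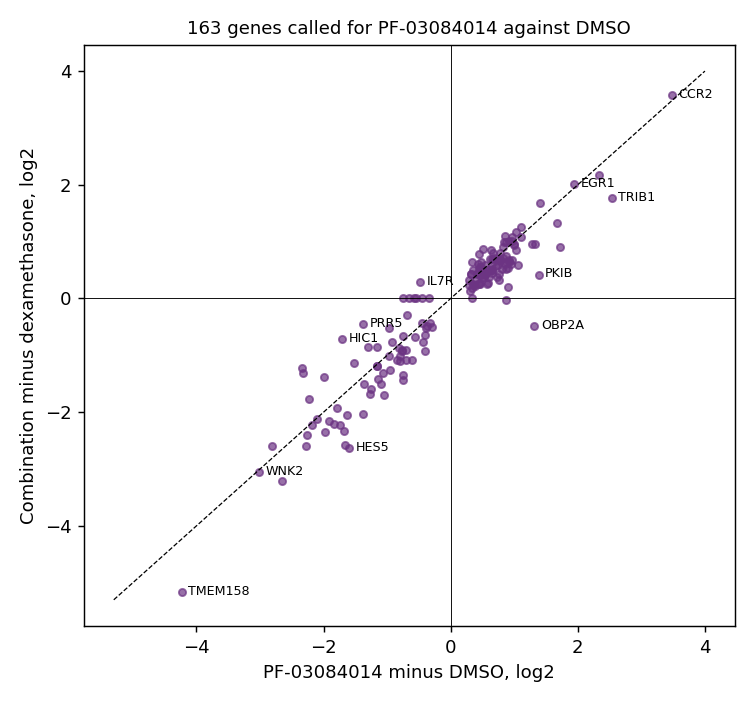
Each point is 1 of the 163 genes called for PF-03084014 against DMSO, with that log2 difference on the horizontal axis and combination minus dexamethasone, from 4 other arrays, on the vertical axis; the dashed line marks equal values. Of these genes 153 lie in the lower left or upper right part, and IL7R (-0.48 and 0.29) and OBP2A (1.32 and -0.48) are among those outside.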

How the data were processed

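Messenger RNA of CUTLL1 cells was labelled with an Affymetrix 3 prime kit, starting from 200 ng of total RNA, and hybridised to 8 GeneChip arrays, per the labels' protocols. The authors deposited linear intensity values for 54675 probe sets. How they were summarised and scaled is not given in the sources used here, and the values were not quantile normalized. Of the probe sets, 41097 named 1 gene in the annotation supplied, 1801 named several and 11777 none, and only the first were used. Values under 16 were set to 16. A gene's brightest probe set, by its mean intensity on the 8 arrays, stood for it, and dim genes were kept.

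limma 3.58.1 in R 4.3.3 was fitted to all 8 arrays as 4 group means, leaving 4 residual degrees of freedom, with an intensity trend, and was tested on simulated data. The median standard error of PF-03084014 minus DMSO was 0.177. Replicates of the combination varied more (SD of their log2 difference 0.550, against 0.326 to 0.361 in the other groups), and 1 spread was pooled over all groups. The number of arrays limits the precision.

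The 45 gene lists hold 1004 genes, of which 911 were measured; the others are not analysed here. Lists were described by counts and medians and not tested; 2 further families (GIMAP, Hedgehog) were added after values were seen. Members, lists and tests were chosen with earlier results of these data known. Genes named were the 20 largest rises and falls among called genes without overlap, called list members (or the one with the smallest p) and 7 fixed genes (NRARP, DTX1, HES1, MYC, IL7R, PTCRA and NOTCH1); others were named after their values were seen. Promoter sequences are RefSeq's (GRCh38.p14).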

Additional observations from a re-analysis of the deposited data

Results flagged for a closer look

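Of the 66 called genes named by the rule given above, 2 moved in opposite directions without and with dexamethasone, without overlap in either comparison. The other called genes were not searched for this. IL7R lay lower on both PF-03084014 arrays than on both DMSO arrays (-0.48 ± 0.051 log2) and higher on both combination arrays than on both dexamethasone arrays (0.29 ± 0.051, limma adjusted p = 0.0369). The difference between both effects was 0.77 ± 0.073 (unadjusted p = 8.72e-05, adjusted p = 0.302 over all genes in limma), so it did not pass the threshold.

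OBP2A, a dim gene, stood at 1.32 ± 0.16 and -0.48 ± 0.16 in the same comparisons, a difference of -1.80 ± 0.22 (unadjusted p = 0.000355, adjusted p = 0.304). Its intensity was 33.9 and 47.0 with PF-03084014, and both DMSO arrays were under the floor. Its 2 other probe sets stood at -0.022 and 0.0032 for PF-03084014 against DMSO. Over the processing settings described below, that difference ranged from 0 to 1.555.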

How the results depend on the processing

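Limits lay in the number of calls more than in the differences. The 163 calls (94 higher, 69 lower, and 144 also called the same way in the combination against dexamethasone) became 32 (7, 25 and 27) with arrays shifted to 1 median, 321 (186, 135 and 269) with a pseudocount of 16, 426 (268, 158 and 366) without genes of mean intensity under 100, 93 (39 higher, and 78 also called) with all probe sets of a gene averaged, and 73 (29, 44 and 66) without the trend. They became 732 (464 higher and 268 lower) with array weights and 350 (206 and 144) with 6 arrays, leaving out the combination. With only the 4 arrays compared they were 0 (0 higher, 0 lower). Quantile normalization of 7 arrays, chosen after seeing the data, gave 261 (132 lower). Leaving out 1 array in turn gave 0 to 356 calls, 0 to 210 higher, 0 to 146 lower and 0 to 280 also called. Such fits leave 1 array in a group, which is assumed to vary like the others.

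With the replicate number as a block there were 79 calls (36 higher, 43 lower, and 75 also called), of which 70 were among the 163. Deviations of same-numbered arrays correlated at -0.011 to 0.080 over genes, so little shared deviation was seen. Dim genes were kept, and their noise can lower such correlations. The values therefore do not tell whether same-numbered arrays shared a culture, day or batch, which was not tested.

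All 163 genes kept their direction under quantile normalization, the median shift, the pseudocount and every array left out. Direction turned for 2 of the called genes named: DUSP1 stood at -0.046 with the mean of its probe sets, and SMPD1 at -0.029 without probe sets ending in _x_at or _s_at. The uncalled FKBP4 stood at 0.20 without those probe sets. Without those probe sets HES1 was represented by a probe set at the floor, at 0. With floors of 32 and 64, 152 and 147 of the 163 genes kept their sign; with averaged probe sets 161 did, and without those ending in _x_at or _s_at 134 of 140. Small list medians changed sign under 1 or more settings for RGS genes, integrins, BMP, NF-kappaB, MYC network, cytosolic ribosomal proteins, glycolysis, G1 genes, metallothioneins and splicing factors. Dim genes have little signal over background, and 16 of the calls had 1 group entirely at the floor.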
